A study of Rattus norvegicus and Ovis aries with 113 samples.

Results

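The Iroquois transcription factors IRX1, IRX2, IRX3, IRX4, IRX5 and IRX6 were followed through RNA-seq libraries of brain and reproductive samples from sheep and rats. The 6 genes were taken by symbol from the count tables, where they were 6 of 31304 sheep genes and 6 of 38675 rat genes. They were chosen by the measured CPM of IRX2, which marks the sheep pons, so the levels in sheep pons are given below as a description with no test. The sheep (Ovis aries) were 5 post-pubertal males, numbered 687, 688, 690, 694 and 699, each with sperm and 10 dissected brain regions: basal ganglia, cerebellum, entorhinal cortex, frontal cortex, hippocampus, motor cortex, prefrontal cortex, pons, posterior parietal cortex and visual cortex. The rats (Rattus norvegicus, Sprague Dawley) gave 15 whole brains and 15 seminal fluid samples labelled sperm from post-pubertal males, and 14 whole brains and 14 ovary samples from females. No animal was treated or genetically altered per the labels, and every library was made from bulk tissue or fluid, so more cells of a type and more RNA per cell cannot be told apart in any value below. By its title, the study looks for genes shared by neurological and reproductive functions.

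Iroquois proteins are homeodomain transcription factors of the TALE class, which carry a short loop extension in the homeodomain, and they share a motif called the Iro box. In vertebrates the genes sit in a pair of clusters of 3, IRX1, IRX2 and IRX4 in one and IRX3, IRX5 and IRX6 in the other, which arose by duplication. In the early neural plate they act behind the forebrain, where SIX3 marks the front and Iroquois genes the territory behind it, and later they take part in patterning of the midbrain, hindbrain and cerebellum. Outside the brain, IRX4 is known for ventricular heart muscle, IRX3 and IRX5 for cardiac conduction and for granulosa cells of the ovary, and IRX5 and IRX6 for retinal bipolar cells.

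In the rat genome (build GRCr8) Irx4 lies on chromosome 1 from 31859101 to 31868089, Irx2 from 32489512 to 32494930 and Irx1 from 33123122 to 33128951. The second cluster lies on chromosome 19, with Irx6 from 30503416 to 30509396, Irx5 from 30812033 to 30816885 and Irx3 from 31384803 to 31388241. Between the outer members of each cluster the annotation placed no protein-coding gene other than the 3 Iroquois genes, and 6 long non-coding RNAs in each. Irx5 overlaps the long non-coding RNA Crnde by 26 bases, and the strand setting of the counting is not given, so reads from those bases cannot be assigned to either with certainty. Sheep genes are given without positions, since no sheep annotation was used here. The RefSeq promoter table held 4 of the 6 rat genes, and the 250 bases before the start of the 3 chromosome 1 genes are shown here because Irx1 and Irx2 were the members called higher in rat sperm while Irx4, in the same cluster, stayed near 0 there. Each is written 5′ to 3′ on the strand of the gene, with capitals marking matches on either strand to the TATA box (TATAAA), the CCAAT box (letters CCAAT), a GC box (GGGCGG) or an E-box (CACGTG). No match overlapped another.
Irx1, chr1:33122872-33123121, plus strand: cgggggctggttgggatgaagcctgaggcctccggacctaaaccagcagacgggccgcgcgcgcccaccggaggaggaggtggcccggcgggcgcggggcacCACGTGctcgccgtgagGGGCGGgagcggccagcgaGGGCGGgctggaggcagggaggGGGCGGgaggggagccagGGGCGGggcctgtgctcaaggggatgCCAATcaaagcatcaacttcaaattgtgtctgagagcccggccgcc
Irx2, chr1:32494931-32495180, minus strand: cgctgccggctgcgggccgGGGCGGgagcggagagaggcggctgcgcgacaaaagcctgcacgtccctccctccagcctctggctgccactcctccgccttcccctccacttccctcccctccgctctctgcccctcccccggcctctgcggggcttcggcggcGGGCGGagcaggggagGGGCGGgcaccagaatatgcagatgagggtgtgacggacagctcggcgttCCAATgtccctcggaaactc
Irx4, chr1:31868090-31868339, minus strand: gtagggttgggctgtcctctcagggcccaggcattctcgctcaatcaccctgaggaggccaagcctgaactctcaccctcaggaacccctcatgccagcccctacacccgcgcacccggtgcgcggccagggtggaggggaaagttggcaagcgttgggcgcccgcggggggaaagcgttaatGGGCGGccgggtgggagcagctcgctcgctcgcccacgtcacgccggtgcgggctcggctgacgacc
The window of Irx1 held 4 GC boxes, 1 CCAAT box and 1 E-box. The window of Irx2 held 3 GC boxes and 1 CCAAT box, and that of Irx4 held 1 GC box. None of the 3 held a TATA box. Among 33469 rat promoter windows of the same length, 30.47% held the GC box, 34.02% the CCAAT box, 5.593% the E-box and 12.93% the TATA box. The 3 windows were rich in G and C, at 72.8% for Irx1, 71.6% for Irx2 and 69.2% for Irx4 against a median of 51.2% over all windows. These matches describe letters in the sequence, and no binding was measured.

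Library totals were 46.7 to 72.4 M counts (M for 1000000) in the 50 sheep brain libraries, 13.7 to 65.1 M in the 5 of sheep sperm, 38.2 to 119 M in the 29 of rat brain, 50.5 to 60.3 M in the 14 of rat ovary and 13.7 to 65.1 M in the 15 of rat sperm. Levels are counts per 1000000 (CPM) of a total scaled by trimmed mean of M values (TMM) over the libraries of a species, given as mean ± SD over libraries, and levels of different genes are not compared because they are not corrected for length. Some libraries stood apart. Rat brain library 1 (female) and library 4 (male) gave 29.9% and 28.4% of their counts to 1 ribosomal RNA entry, against 0.836% to 18.7% in the other 27 brain libraries. Their TMM factors were 0.069 and 0.126, against 0.507 to 1.36 in the other 27, so scaling raised their levels: IRX1 in them was 4.98 and 4.93 CPM, and 0.344 and 0.618 on plain CPM. Rat sperm libraries 7, 16 and 17 held 327 to 532 genes at 1 to 4 counts, against 3061 to 5638 in the other 12. The TMM factors of sheep sperm, 0.124 to 0.343, were far below those of sheep brain, 0.920 to 1.4, so scaling raised every level in sheep sperm, and plain CPM is given beside those levels. Tests were edgeR quasi-likelihood tests over all genes, and "called" means a Benjamini-Hochberg adjusted p below 0.05 together with a change of 1 or more on the log2 scale, up or down.

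In sheep brain, IRX1, IRX2, IRX3 and IRX5 were highest in pons and cerebellum and stood near 0 in most libraries of the other regions. IRX2 in pons was 21.6 CPM in sheep 687, 7.89 in 688, 4.68 in 690, 10.2 in 694 and 3.77 in 699. All 5 lay above every library of the other 8 regions, of which the highest was 0.763, while the lowest overlapped the highest cerebellum library. IRX1 in pons was 8.52, 5.59, 3.88, 6.51 and 2.99 CPM in the same order of sheep. Sheep 687 was highest and 699 lowest for both genes. For the other cluster the order was different: IRX3 was lowest in sheep 687, at 3.16 CPM, and highest in 690, at 5.81, and IRX5 ran from 2.37 in 687 to 4.14 in 694. IRX4 was at 0.380, 1.35, 0.108, 2.26 and 0.345 CPM in pons, and no library outside pons passed 0.0824, so pons was the one region where its 5 libraries did not overlap any other. IRX6 was the most uneven, with 0 counts in sheep 687, 1.59 CPM in 690 and 0.345 to 0.495 in the other 3.

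The pons libraries also differed from one another in markers of brainstem cells, and the part of this in the Iroquois values was not tested. The summed level of 8 pons and brainstem markers ran from 9.08 CPM in sheep 687 to 80.0 in 690, with 10.2 in 694, 15.9 in 699 and 41.1 in 688, and in no other region did it pass 13.4. SLC6A5, the glycine transporter of inhibitory brainstem neurons, was 24.1 in 688 and 0.307 in 687. HOXA2, a hindbrain segment gene, was 7.13 in 690 and 0.109 in 694. Markers of glia were high in all 5: the summed level of 3 astrocyte markers was 12799 to 17448 CPM against at most 7273 in any library of another region, and that of 3 oligodendrocyte markers was 13763 to 65884, overlapping motor cortex and basal ganglia, whose highest were 24181 and 14727. In sheep 687, which had the highest IRX2, HOXA2 was 3.63 CPM.

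**Figure D1:**
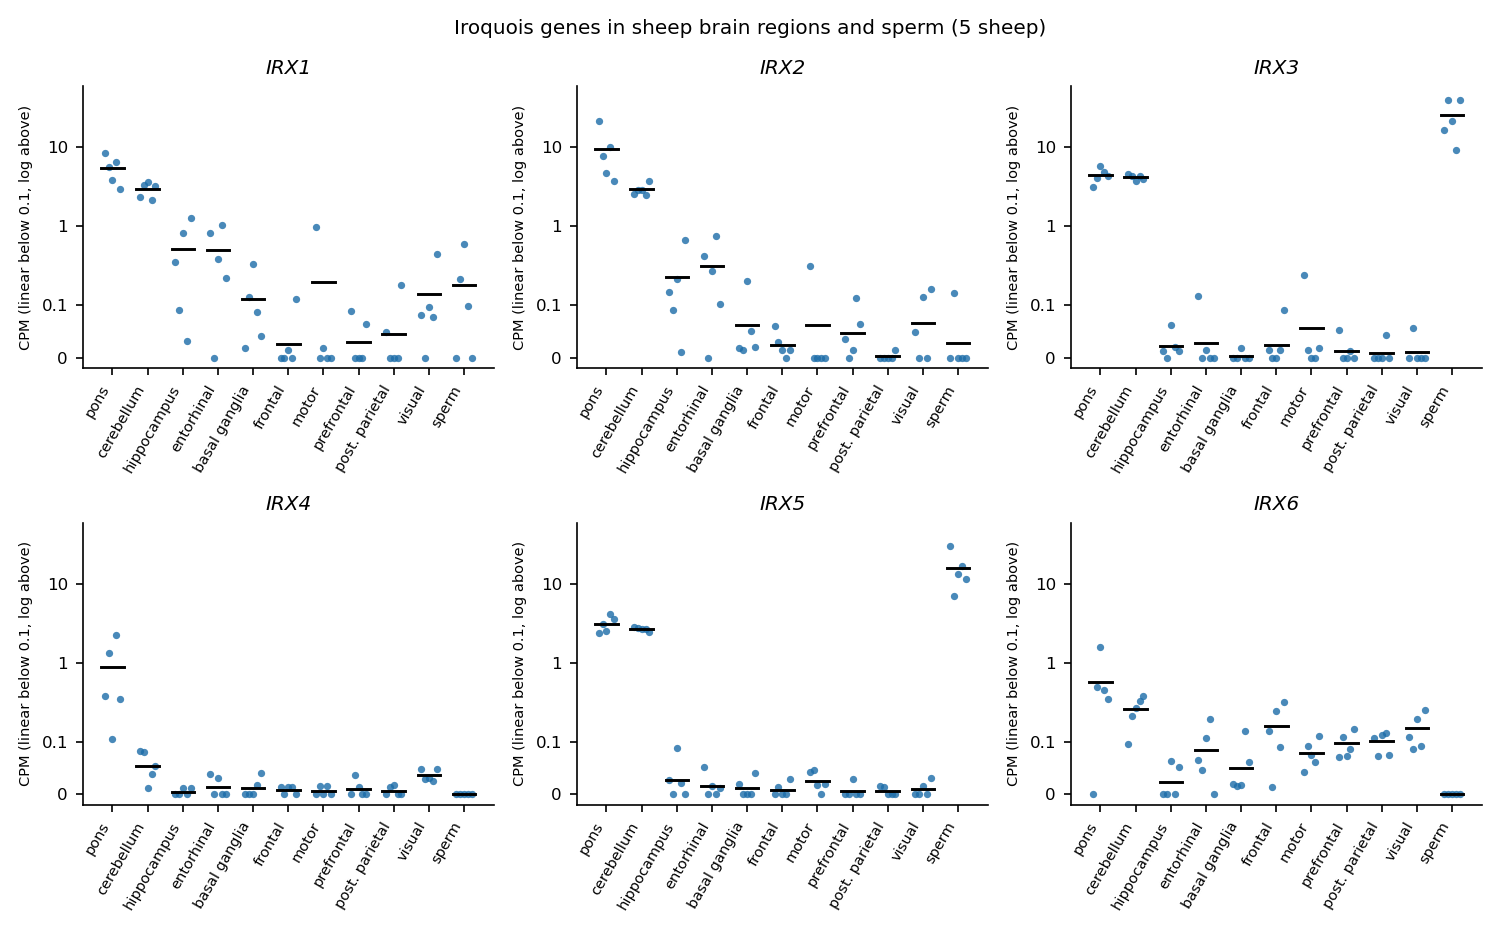
Level of each Iroquois gene in 10 brain regions and sperm of 5 sheep, in CPM with TMM scaling on an axis that is linear below 0.1 and logarithmic above. Points are libraries and bars are group means. IRX1, IRX2, IRX3 and IRX5 stand at 2.18 CPM or more in every pons and cerebellum library. With this scaling IRX3 and IRX5 stand highest in sperm, and on plain CPM their sperm libraries overlap pons and cerebellum.

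The members were chosen on IRX2 as a mark of pons, which sets pons against the other regions. The IRX2 values of cerebellum and neocortex were thus not fully independent of that choice. With the pons libraries left out, cerebellum was set against the mean of the 5 neocortical regions (frontal, motor, prefrontal, posterior parietal and visual cortex, 25 libraries of the same 5 sheep). All 5 members that passed the low-count filter were called higher, where 10.1% of all 20999 genes tested were called higher and 28.8% were called in either direction. IRX3 and IRX5, near 0 in the other regions of this fit, passed the filter through cerebellum, so the count of 5 is a description and not support. The cerebellum markers, summed over 6 genes, were at 2022 to 2515 CPM in these 5 libraries and at most 114 in any other region.

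IRX3 in cerebellum was 4.64, 4.30, 3.80, 4.30 and 4.02 CPM in sheep 687, 688, 690, 694 and 699, and 0 to 0.245 in neocortex. IRX5 was 2.88, 2.74, 2.66, 2.69 and 2.46 CPM, and 0 to 0.0465 in neocortex. Both groups were well separated, and IRX5 varied little between sheep, at 2.69 ± 0.154 (SD, n = 5). IRX3 was higher by 7.69 ± 0.51 on the log2 scale (SE, edgeR adjusted p = 2.22e-16) and IRX5 by 7.84 ± 0.41 (edgeR adjusted p = 2.61e-19). Both genes passed the low-count filter through cerebellum, so these values too are a description and not support. In pons the same genes averaged 4.46 ± 0.979 and 3.14 ± 0.737, and for both genes the pons and cerebellum libraries overlapped.

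From the other cluster, IRX1 in cerebellum was 2.38, 3.38, 3.63, 2.18 and 3.25 CPM, and 0 to 0.979 in neocortex. IRX2 was 2.61, 2.90, 2.91, 2.5 and 3.78, and 0 to 0.317 in neocortex. The groups did not overlap for either gene. IRX1 was higher by 5.48 ± 0.68 (log2, SE, edgeR adjusted p = 5.89e-09) and IRX2 by 6.54 ± 0.59 (edgeR adjusted p = 1.68e-12). The 2 remaining members were low. IRX6 was 0.0961 to 0.380 CPM in cerebellum and 0.0149 to 0.317 in neocortex, with overlapping groups, and was higher by 1.17 ± 0.44 (log2, SE, edgeR adjusted p = 0.0199); without sheep 690 or 694 the adjusted p was 0.0507 or 0.0759. IRX4 had 20 counts over the 5 cerebellum libraries and 22 over the 25 of neocortex, below the filter. With no filter, or with DESeq2, it was called higher, by 2.14 or 2.31 on the log2 scale (adjusted p = 0.00255 and 0.00384).

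Hippocampus and entorhinal cortex held low levels of IRX1 and IRX2 that came from some sheep and not others. In hippocampus IRX1 was 0.354, 0.0921, 0.824, 0.0325 and 1.28 CPM in sheep 687, 688, 690, 694 and 699. In entorhinal cortex it was 0.820, 0, 0.386, 1.05 and 0.220. Sheep 699 was highest in hippocampus and 694 in entorhinal cortex, and both regions overlapped the neocortex. IRX2 followed the same order in hippocampus, from 0.0108 in sheep 694 to 0.666 in 699, and in entorhinal cortex ran from 0 in 688 to 0.763 in 694.

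In hippocampus 2 members were called higher than in neocortex, where 4.36% of genes were, and 1 was called lower, where 3.18% were; 7.53% were called either way. IRX1 was higher by 2.99 ± 0.75 (log2, SE, edgeR adjusted p = 0.00342) and IRX2 by 2.88 ± 0.70 (edgeR adjusted p = 0.00270). IRX6 was lower, at 0 counts in 3 libraries and 0.0512 to 0.0634 CPM in the other 2, against 0.0149 to 0.317 in neocortex, by −2.16 ± 0.64 (edgeR adjusted p = 0.0134). IRX3 and IRX5, both near 0, were not called, at 0.32 ± 0.84 and 1.4 ± 0.67 (edgeR adjusted p = 0.819 and 0.132). The calls rested on single sheep: the adjusted p of IRX1 was 0.0594 without 690, that of IRX2 0.0863 without 699, and that of IRX6 0.0599 without 687 and 0.0555 without 694, while IRX5 passed without 699 (1.99 on the log2 scale, adjusted p = 0.0423).

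In entorhinal cortex, where 2.74% of all genes were called higher, 0.243% lower and 2.99% either way, the same 2 members were: IRX1 by 2.92 ± 0.75 (log2, SE, edgeR adjusted p = 0.0137) and IRX2 by 3.32 ± 0.67 (edgeR adjusted p = 0.00138). IRX3, IRX5 and IRX6 were not called, at 0.66 ± 0.84, 0.67 ± 0.75 and −0.41 ± 0.52 (edgeR adjusted p = 0.679, 0.629 and 0.682). Without sheep 694 neither gene passed (adjusted p = 0.225 for IRX1 and 0.0686 for IRX2), and IRX1 also failed without 690 (0.0873) and with DESeq2 (0.0805). Choroid plexus and ependymal markers, summed over the 4 of 5 in the sheep table, also varied here, from 3.58 CPM in sheep 688, where IRX1 and IRX2 had 0 counts, to 105 to 229 in the other 4. In hippocampus that sum was highest in sheep 694 (1205 CPM), where IRX1 was lowest, and lowest in 699 (46.3 CPM), where IRX1 was highest. The 1 motor cortex library with IRX1 near 1 CPM, sheep 687 at 0.979, also had the highest such sum of that region, 698 CPM against 4.01 to 56.8. The part of these cells in the IRX1 and IRX2 values was not tested.

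Basal ganglia showed no difference from neocortex that passed. Of 5 members tested none was called by edgeR, none had an unadjusted p below 0.05, and DESeq2 called none of 6 and gave 1 an unadjusted p below 0.05; 11.5% of all genes were called, 5.13% higher and 6.38% lower. IRX1 was 0.0193 to 0.336 CPM and IRX2 0.0157 to 0.206, with sheep 690 highest for both. IRX3 had 1 count and IRX5 3 counts over the 5 libraries. The 95% interval of the log2 difference ran from −0.94 to 2.74 for IRX1 and from −0.72 to 2.74 for IRX2, so a rise of several fold in either gene was not excluded. IRX6 was lower by −1.14 ± 0.59 (SE, edgeR adjusted p = 0.155), and by −1.98 with an adjusted p of 0.0450 without sheep 694.

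Other patterning genes moved in different directions in the same regions. In cerebellum 10.1% of all genes were called higher and 18.7% lower, the shares to set beside each list count there. Of 8 forebrain patterning genes tested in cerebellum 6 were called lower and 1 higher, with a median log2 fold change of −8.77 against −0.03 over all genes. Genes near 0 in cerebellum passed the low-count filter through other regions, so these counts are a description. EMX2, which acts in cortex, was lower by −10.93 ± 0.43 (SE, edgeR adjusted p = 2.42e-23). OTX2, a forebrain and midbrain factor, was uneven in cerebellum, at 6.70 ± 11.6 CPM (SD, n = 5), and was called higher by 5.33 ± 0.54. The summed choroid plexus and ependymal markers were also uneven, at 4.22 to 775 CPM in cerebellum and 46.3 to 1205 in hippocampus. The part of these cells in the OTX2 values was not tested. Hindbrain and brainstem factors split, with 5 higher and 5 lower of 12 tested and a median of −0.29, EN2, which patterns the midbrain and cerebellum, being highest at 122 ± 12.9 CPM (SD, n = 5) and higher by 13.37 ± 0.64. Of the 12 other TALE homeobox genes, which hold known partners of many homeodomain proteins, 4 were higher and 3 lower, with a median of 0.37. MEIS1 rose by 4.02 ± 0.25 and MEIS2 fell by 3.74 on the log2 scale (SE of 0.43), both past the threshold with edgeR (adjusted p = 3.43e-17 and 1.2e-09). In basal ganglia, where no Iroquois gene was called, SIX3 stood at 48.6 ± 12.2 CPM (SD, n = 5) and was higher by 10.10 ± 0.59 (edgeR adjusted p = 3.84e-17). In hippocampus, where 4.36% of all genes were called higher, SIX3 and OTX2 were the 2 forebrain genes of 8 called, both higher, by 5.30 ± 0.63 and 3.27 ± 0.56. EN2 and SIX3 averaged 0.0107 and 0.0790 CPM in neocortex and passed the low-count filter through regions where they were high. Their higher calls, and the counts that hold them, are thus a description and not support.

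Over the 50 sheep brain libraries the members rose and fell with one another, a description that rests on pons and cerebellum and on libraries from the same 5 sheep. On log2(CPM + 1), Pearson's r was 0.99 between IRX3 and IRX5, neighbours in one cluster, 0.97 between IRX1 and IRX2 in the other, and 0.91 to 0.92 for the 4 pairs across clusters. Among 13705 other genes the 3 most like IRX3 were DAO (r = 0.98), which encodes D-amino acid oxidase of astrocytes in hindbrain and cerebellum, COLEC11 (0.95), a collectin of innate immunity, and MAB21L2 (0.93), a developmental gene of eye and midbrain. The 3 most like IRX5 were the same, at 0.97, 0.95 and 0.93. For IRX1 they were AGMO, a monooxygenase of ether lipids (0.93), DAO (0.92) and COLEC11 (0.91), and for IRX2 MAB21L2 (0.93), AGMO (0.91) and COLEC11 (0.91).

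In sheep sperm IRX3 and IRX5 were high and the other 4 members were nearly absent. IRX3 was 16.6 CPM in sheep 687, 39.4 in 688, 21.5 in 690, 9.37 in 694 and 40.4 in 699. IRX5 was 30.3, 7.05, 13.4, 16.7 and 11.5. All 5 sperm libraries lay above every brain library for both genes on this scale, and the sheep were ordered differently by the 2 genes. On plain CPM, IRX3 in sperm averaged 5.94, beside 5.54 in cerebellum and 5.30 in pons, and IRX5 averaged 3.41, beside 3.53 and 3.77, so that the libraries overlapped those regions, and the order of sperm against pons and cerebellum depends on the scaling. IRX1 had 6 counts over the 5 libraries, IRX2 had 2, and IRX4 and IRX6 had none.

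Against the mean of the 10 regions on the log scale, where 33.1% of 21859 genes were called higher, 41.1% lower and 74.2% either way, 2 members were called higher and 1 lower. IRX3 was higher by 8.97 ± 0.35 (log2, SE, edgeR adjusted p = 5.79e-29) and IRX5 by 8.72 ± 0.29 (edgeR adjusted p = 4.95e-32). In 8 of the 10 regions both genes were near 0. IRX6 was called lower (edgeR adjusted p = 0.0287), a description only, since it passed the low-count filter through brain. Neither IRX6 nor IRX4, which was not tested, had a count in sperm, which allows a level of up to 0.0668 CPM (3 counts over the 5 libraries); their means over the 40 brain libraries outside pons and cerebellum were 0.0931 and 0.0125 CPM, so no difference in IRX4 from those regions was detectable at this depth. The IRX6 call was lost with upper quartile factors (adjusted p = 0.0755), with DESeq2 (0.0962), without the sperm library of sheep 688 (0.0624) and without sheep 688, 690, 694 or 699 (0.0530 to 0.0724). IRX1 and IRX2 were not called, at −0.64 ± 1.35 and −1.55 ± 1.61 (edgeR adjusted p = 0.663 and 0.370). This fit holds the pons libraries, whose values chose the members. With pons left out the same members were called: IRX3 at 9.68 ± 0.38, IRX5 at 9.42 ± 0.31 and IRX6 with an edgeR adjusted p of 0.0228, while IRX1 and IRX2 stood at −0.12 ± 1.63 and −0.88 ± 1.74 (edgeR adjusted p = 0.948 and 0.644).

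Sheep sperm libraries held markers of sperm and of another cell type in differing amounts. The summed level of the 6 spermatid and sperm markers was 5525, 171, 2368, 598 and 6109 CPM in sheep 687, 688, 690, 694 and 699. The summed level of stratified squamous epithelium markers (5 of 6 in the table) was 7686, 132435, 33004, 7626 and 24349 CPM, against at most 8.57 in any brain library. IRX3 was high both in sheep 688, which had the most squamous and the least sperm signal, and in 699, which had the most sperm signal. IRX5 was lowest in 688. The part of each cell type in these values was not tested.

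In whole rat brain all 6 genes were counted in every library. Over the 14 female and 15 male brains, Irx1 ran from 1.85 to 6.75 CPM with a median of 3.63, Irx2 from 1.03 to 8.65 with a median of 3.20, and Irx3 from 0.884 to 3.72 with a median of 2.69. Irx5 ran from 0.580 to 2.15, Irx6 from 0.222 to 0.903 and Irx4 from 0.0210 to 0.486. Female and male brains overlapped for every member. None of the 6 was called between the sexes by edgeR or DESeq2, where edgeR called 12 of 20570 genes, 0.0583% (0.0146% higher in females and 0.0438% lower), and each tool gave 1 member an unadjusted p below 0.05. By edgeR that was Irx2, at 4.19 ± 1.87 CPM in females (SD, n = 14) and 2.68 ± 0.899 in males (SD, n = 15), a log2 difference of 0.63 ± 0.20 (SE, adjusted p = 0.249). For the other 5 the 95% intervals of the log2 difference lay between −0.56 and 0.65. Over the 29 brains Irx1 was most like Irx5 among the members (r = 0.88), across clusters, while Irx2 and Irx3 were least alike (0.66). The other genes most like each were Ubxn2a for Irx1 (r = 0.87), Esrrb for Irx2 (0.77), Mab21l2 for Irx3 (0.83) and Spp1 for Irx5 (0.83), over whole brains that share a dissection and differ in depth. Mab21l2 was thus among the 3 most alike of Irx3 in both species.

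**Figure D2:**
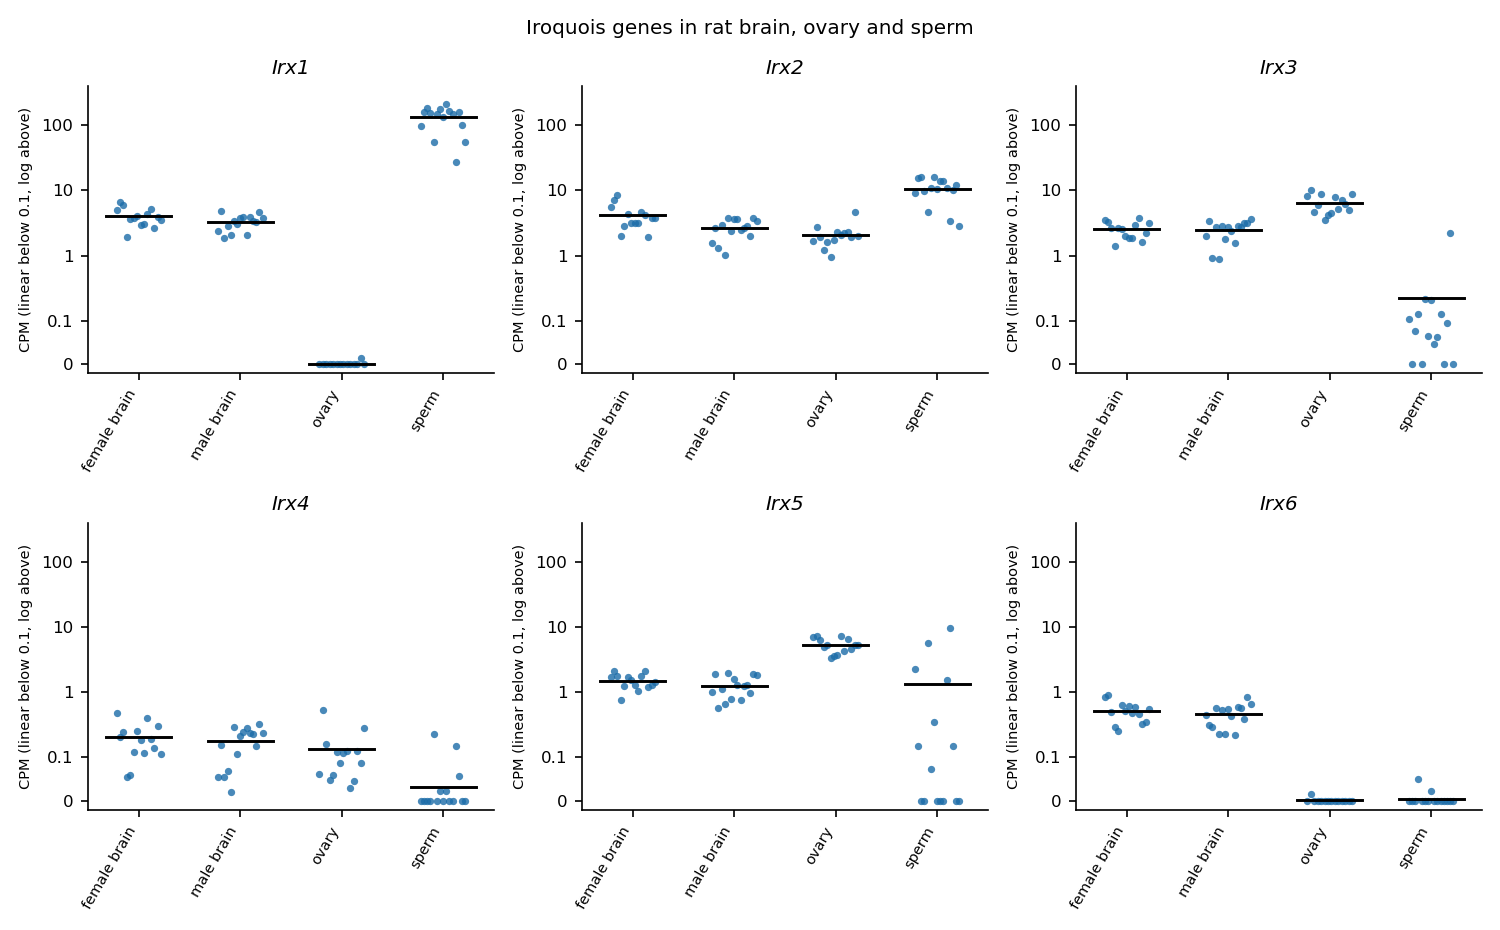
Level of each Iroquois gene in whole brain of 14 female and 15 male rats, 14 ovaries and 15 sperm libraries, in CPM with TMM scaling on an axis that is linear below 0.1 and logarithmic above. Points are libraries and bars are group means; Irx1 stands at 27.8 to 214 CPM in sperm and has 1 count over all ovaries, while Irx3 is highest in ovary.

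In rat sperm Irx1 and Irx2 were high and Irx3, Irx4 and Irx6 were nearly absent. Irx1 was at 27.8 to 214 CPM with a median of 151, and every library lay above the highest brain, at 6.75. Irx2 was at 2.83 to 16.2 with a median of 11.0, and its lowest libraries overlapped the male brains, whose highest was 3.75. Irx3 was at 0 to 0.219 in 14 libraries and at 2.23 in library 16, against 0.884 to 3.64 in male brain. Irx6 had 3 counts over the 15 libraries and Irx4 had 28.

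Set against male brain, where 27.7% of 20480 genes were called higher, 31.5% lower and 59.1% either way, 2 of the 4 members tested were called higher and 1 lower. Irx1 was higher by 5.44 ± 0.24 (log2, SE, edgeR adjusted p = 4.59e-19), 43.4-fold, and Irx2 by 2.10 ± 0.24 (edgeR adjusted p = 1.95e-09), 4.29-fold. Irx3 was lower by −3.41 ± 0.65 (edgeR adjusted p = 2.01e-05), and by −4.70 without libraries 16 and 17. Being near 0 in most sperm libraries, Irx3 passed the low-count filter through brain, so its call is a description. Irx5 was not called (0.40 ± 0.86, edgeR adjusted p = 0.682), and its direction depended on a few libraries, as given below. For Irx6, below the filter, brain exceeded sperm 112-fold with a 95% counting interval of 38.2 to 547, and it was called lower with no filter, with DESeq2 and in each fit with libraries left out that kept it (−6.40 to −5.71 on the log2 scale). The fits with libraries left out kept Irx6 through brain, so its calls there are a description and not support. Irx4 was lower by −2.19 with no filter and −2.21 with DESeq2 (adjusted p = 0.00819 and 0.00321). The labelled species and the library kits differ together, so sheep and rat sperm were not compared directly.

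**Figure D3:**
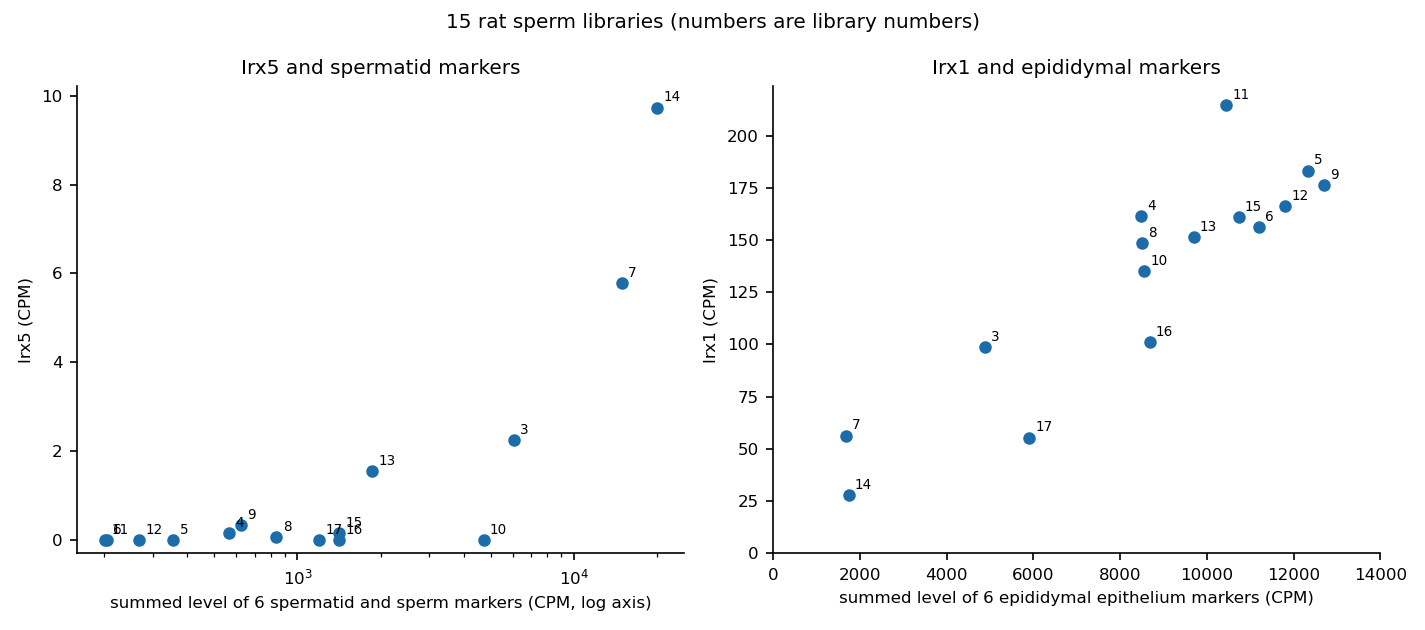
Left, Irx5 (CPM) against the summed level of 6 spermatid and sperm markers (CPM, log axis); right, Irx1 (CPM) against the summed level of 6 epididymal epithelium markers (CPM, linear axis). Points are the 15 rat sperm libraries with their numbers; libraries 7 and 14 stand highest for Irx5, at 5.78 and 9.73 CPM, and among the lowest 3 for Irx1.

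Irx5 in rat sperm was 9.73 CPM in library 14, 5.78 in library 7, 2.24 in library 3 and 1.55 in library 13, and 0 to 0.344 in the other 11, with 0 counts in 7 of them. Irx4 was also highest in libraries 7 and 14, at 0.227 and 0.148 CPM, and at most 0.0565 in the rest. The same 4 libraries held the most Tnp1, a transition protein of late spermatids, at 4584, 2595, 854 and 378 CPM in 14, 7, 3 and 13 against 0 to 55 in the other 11. Of the other spermatid and sperm markers, Prm2, Tnp2 and Akap4 were also highest in these 4, and Prm1 and Odf1 were not. Prm1 was 515 CPM in library 10 and 415 in 13. Odf1 was 4070, 1291, 1281 and 1021 CPM in libraries 10, 15, 16 and 17, above the 580 in 13. Library 10 had 4710 CPM of the 6 spermatid and sperm markers, mainly Odf1, with 8.16 CPM of Tnp1 and no Irx5 count. Without libraries 3, 7 and 14 Irx5 was called lower than in male brain, by −2.5 on the log2 scale (edgeR adjusted p = 0.00174). With DESeq2 on all libraries it stood at −0.50 (adjusted p = 0.602). The sum of spermatid markers was 201 to 19907 CPM over the 15 libraries.

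Irx1 and Irx2 were low in 2 of the libraries where Irx5 was high. Irx1 was lowest in library 14, at 27.8 CPM, then in 17, at 55.4, and 7, at 56.3, and stood at 98.9 to 214 in the other 12. Irx2 was lowest in the same 3 libraries, at 2.83 to 4.69 against 9.07 or more. Libraries 7 and 14 were also the lowest in markers of epididymal epithelium, the lining of the duct where sperm mature: the sum of 6 was 1680 in library 7, 1739 in 14 and 4876 to 12707 in the other 13, with 5897 in 17, while male brain held 9.35 to 13.1. All 6 were detected in sperm. The part of spermatids or epididymal epithelium in the Iroquois values was not tested.

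The long non-coding RNAs named in this paragraph were chosen after their values were seen and are given with no test. Of the 12 long non-coding RNAs within the chromosome 1 cluster or up to 500 kb beyond it, 3 reached a mean of 1 CPM in sperm. LOC134484981, which lies between Irx2 and Irx1, had 0 counts in brain and ovary and was 13.1 CPM in library 14, 8.91 in 7, 2.39 in 3 and 0.866 in 13, with at most 0.172 in the other 11. LOC120098995, beyond Irx1, was 17.0, 11.3, 3.41 and 0.902 in the same 4, with at most 0.152 in the rest. Both were highest in libraries 14 and 7, where Irx5 was highest and Irx1 among its lowest 3. LOC134484857, from 33477098 to 33481723 on chromosome 1, averaged 11.2 ± 8.77 CPM (SD, n = 15) over the sperm libraries, from 0 in library 17 and 1.48 in 14 to 31.6 in 10, with 2 counts over all ovaries and none in brain. On chromosome 19, Crnde, the neighbour that overlaps Irx5, was 20.7, 16.8, 7.15 and 1.12 in libraries 7, 14, 3 and 13, the 4 with the most Irx5, and also 2.78 in library 16, where Irx5 had no count and Irx3 was 2.23. In library 7 Crnde had 1277 counts and Irx5 had 356.

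In rat ovary Irx3 and Irx5 were called higher than in brain, Irx1 and Irx6 were nearly absent, and Irx2 and Irx4 were not called. Irx3 was at 3.51 to 10.1 CPM with a median of 6.10, and the lowest ovaries overlapped the highest female brain, at 3.72. Irx5 was at 3.38 to 7.30 with a median of 5.23 and did not overlap female brain, whose highest was 2.15. Irx2 was at 0.952 to 4.66 with a median of 1.98 and Irx4 at 0.0305 to 0.534, both overlapping brain. Irx1 and Irx6 each had 1 count over the 14 ovaries.

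Set against female brain, where 27.7% of 20801 genes were called higher, 29.2% lower and 56.9% either way, 2 of the 5 members tested were called higher and 2 lower. Irx3 was higher by 1.38 ± 0.17 (log2, SE, edgeR adjusted p = 5.54e-09), 2.60-fold, and Irx5 by 1.85 ± 0.15 (edgeR adjusted p = 4.75e-13), 3.59-fold. Irx1 and Irx6 were lower (edgeR adjusted p = 4.6e-24 and 4.8e-19). With 1 ovary count each, both passed the low-count filter through brain, so these calls are a description and not support. The ratio of brain to ovary, from 1 ovary count each, was 3690 for Irx1, with a 95% counting interval of 662 to 145774, and 463 for Irx6, with an interval of 82.6 to 18321. Irx2 had an edgeR adjusted p of 8.4e-05 but a log2 difference of −0.98 ± 0.21, just short of the size needed, and with relative log expression (RLE) factors it was called at −1.0. Irx4, below the filter, was at −0.46 with no filter and −0.53 with DESeq2 (adjusted p = 0.248 and 0.208). The ovary libraries held granulosa markers at a sum of 768 to 3070 CPM over 5 genes, against 6.55 to 14.1 in female brain, and theca and luteal markers at 949 to 3026, and the part of each cell type in the Iroquois levels was not tested. All 12 genes of the granulosa and early ovary list were called higher, with a median log2 difference of 6.12 against 0.02 over all genes. The list was made of genes known for the ovary, so this count is a description and not support. Some were near 0 in female brain, such as FSHR at 0.0142 CPM, and passed the filter through ovary.

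Ovary and sperm of rats were also set against each other. Where 27.9% of 19611 genes were called higher in ovary, 22.9% lower and 50.8% either way, Irx3 was higher in ovary by 4.80 ± 0.71 (log2, SE, edgeR adjusted p = 6.05e-07) and Irx2 lower by −2.36 ± 0.24 (edgeR adjusted p = 4.31e-10). Irx1, with 1 count in ovary and 92467 in sperm, was lower (edgeR adjusted p = 1.2e-23). The low-count filter took in Irx1 through sperm and Irx3 through ovary, so the calls of both are a description. Irx5 was not called (1.67 ± 0.91, edgeR adjusted p = 0.0997), with ovary above 13 of the 15 sperm libraries. It was called higher in ovary without sperm libraries 3, 7 and 14 (4.48, adjusted p = 5.05e-06), without 7, 16 and 17 (1.93, 0.0473) and with DESeq2 (2.17, 0.0242). This comparison shares its libraries with the comparisons against brain.

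**Figure D4:**
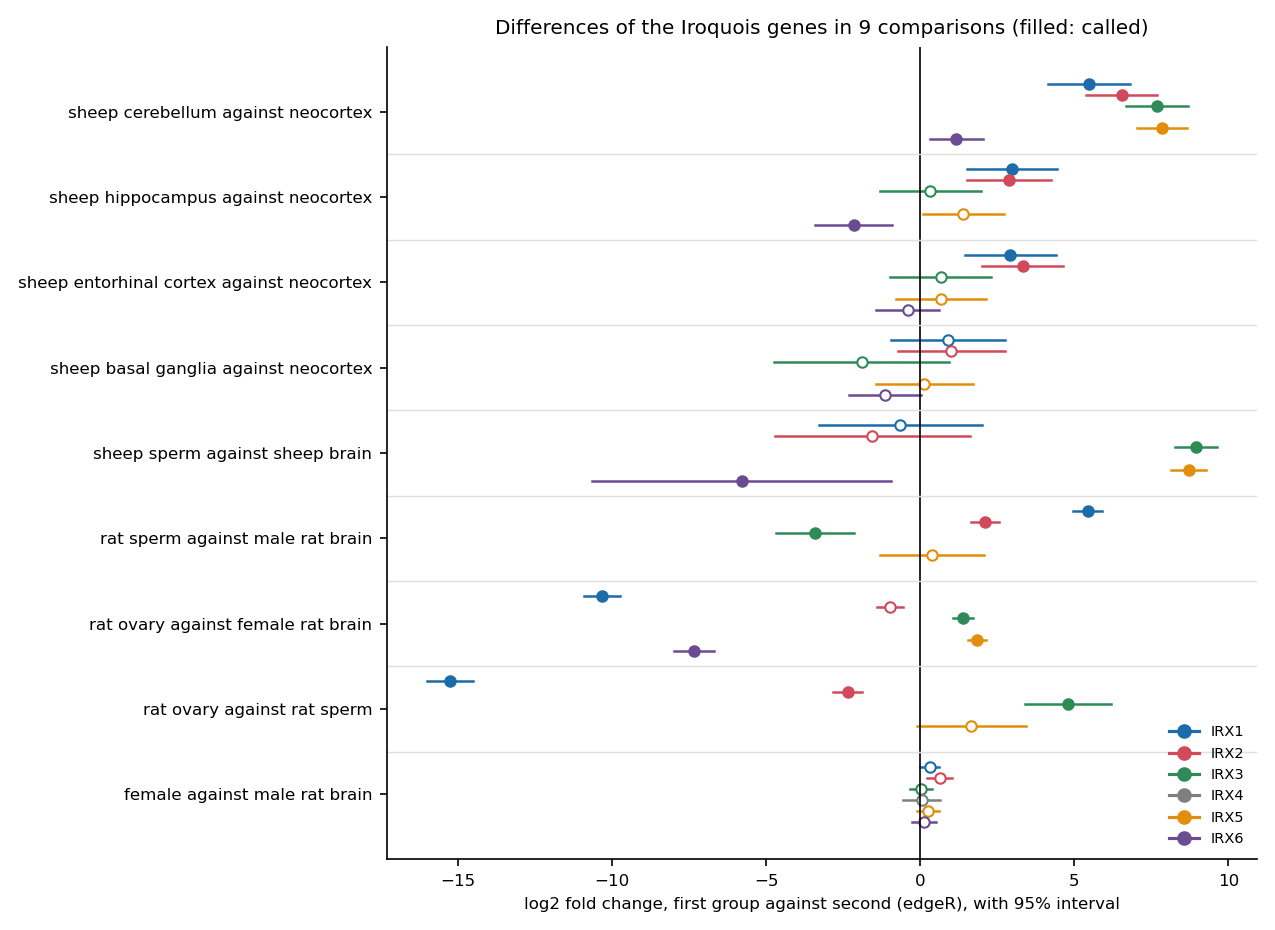
Log2 fold change of each member (edgeR) in the 9 comparisons, with lines for the 95% interval from the standard error; filled points were called. In cerebellum all 5 members tested were called above 0, in sheep sperm IRX3 and IRX5, and in rat sperm Irx1 and Irx2. Irx5 in rat sperm also lies above 0, at 0.40, but was not called. Members below the low-count filter have no point. Members with 0 or 1 count in a group have fitted values that depend on the prior count.

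Of 10 neighbours tested in sheep cerebellum none was called higher and 2 lower, beside 10.1% and 18.7% of all genes. In rat sperm 3 of 11 were higher and 2 lower, beside 27.7% and 31.5% of all genes, Crnde among the higher at 2.26 ± 0.85 (log2, SE, edgeR adjusted p = 0.0174) and MMP2, a matrix metalloproteinase, at 1.56 ± 0.45. In rat ovary 2 of 12 were higher, MMP2 by 4.55 ± 0.22 and Crnde by 1.36 ± 0.21 (edgeR adjusted p = 3.04e-18 and 4.32e-07), and 3 lower, beside 27.7% and 29.2% of all genes. In sheep sperm 1 of 10 was higher and 6 lower, beside 33.1% and 41.1% of all genes, with a median of −1.76 against −0.42 over all genes.

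Among the patterning genes in the rat reproductive samples, most of the forebrain list was lower, with 7 of 8 called lower in rat sperm, where 31.5% of all genes were, and 7 of 8 in rat ovary, where 29.2% were. In rat ovary against rat sperm, a fit without brain, 1 of the 10 forebrain genes passed the low-count filter. Most of them thus passed it through brain, where they are high, so these counts are a description and not support. The forebrain gene called higher in rat sperm was EMX2, also known for the urogenital tract, at 99.0 ± 40.7 CPM (SD, n = 15) and higher by 3.69 ± 0.21 (log2, SE, edgeR adjusted p = 2.78e-16). Of the hindbrain and brainstem factors 2 were called higher and 10 lower of 14 tested in rat sperm, beside 27.7% and 31.5% of all genes. In rat ovary against rat sperm 6 of these 18 factors passed the filter. Most of the 14 thus passed it through brain, so the rat counts are a description and not support. In sheep sperm 4 of these factors were called higher and 1 lower of 14, beside 33.1% and 41.1% of all genes. GATA3, a factor of brainstem neurons and of epithelia, was higher in rat sperm by 8.24 ± 0.34 and in sheep sperm by 10.91 ± 0.26. Of the TALE genes, PKNOX1 and TGIF1, which are widely expressed, were called higher in sperm of both species, by 4.94 ± 0.17 and 3.56 ± 0.24 in sheep and by 1.38 ± 0.14 and 3.01 ± 0.18 in rat. MEIS1 and MEIS2 were lower in rat sperm, by −4.36 ± 0.53 and −7.25 ± 0.53. The sheep and rat values come from separate fits and kits and are set side by side only.

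By mean level, IRX1 in sheep ran from pons through cerebellum, hippocampus, entorhinal cortex, motor cortex, sperm, visual cortex, basal ganglia, posterior parietal and prefrontal cortex to frontal cortex, and the one step between neighbours with no overlap of libraries was that from cerebellum to hippocampus. IRX2 ran from pons and cerebellum to entorhinal cortex and hippocampus, with the same single gap after cerebellum. IRX3 and IRX5 ran from sperm to pons and cerebellum, with gaps after sperm and after cerebellum and overlap at every later step. The place of sperm and the gap after it hold with TMM scaling only. On plain CPM the sperm libraries overlapped those of pons and cerebellum for both genes. IRX4 had its only gap after pons. IRX6 ran from pons and cerebellum through the cortical regions to hippocampus and sperm, with no gap. In rat the order was sperm, female brain, male brain and ovary for Irx1, with gaps at each end, and the same order with no gap for Irx2. It was ovary, female brain, male brain and sperm for Irx3, with no gap. For Irx5 it was ovary, female brain, sperm and male brain, with a gap between ovary and female brain. Sperm was not separated from ovary for Irx5: sperm libraries 14 and 7, at 9.73 and 5.78 CPM, reached the ovary range of 3.38 to 7.30. Irx4 had no gap, and Irx6 had 1, between male brain and sperm.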

How the data were processed

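The authors deposited raw read counts per gene, 1 column for each of 113 libraries. Per the labels, sheep RNA came from TRIzol and Kapa stranded mRNA libraries, and rat RNA from a Zymo kit and Watchmaker stranded mRNA libraries, so kit and species cannot be told apart. Per the series' design text, reads were trimmed (Trimmomatic 0.39), aligned (STAR 2.7.5a) to ARS-UI_Ramb_v3.0 or GRCr8 and counted (Rsubread 2.20.0). The sources used here do not state the strand or multi-mapping settings.

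From the deposited counts, edgeR 4.0.16 under R 4.3.3 gave the tests (quasi-likelihood, TMM factors, filterByExpr by group, Benjamini-Hochberg over all genes tested). Sheep regions were fitted over 45 brain libraries without pons, sheep sperm over all 55, and each rat comparison on its own groups. Alternatives were DESeq2 1.42.0, RLE and upper quartile factors, no filter, a block on the animal number, and left-out libraries. Leaving out rat sperm libraries 3, 7 and 14 or 7, 16 and 17, leaving out rat brains 1 and 4, and plain CPM were chosen after seeing the data. The script was tested on simulated data. The members and gene lists were chosen with earlier results of these data known. From the lists, the text names called genes by size of change, up to 2 per direction, list and comparison, at 1 CPM or more in the higher group. Some list genes are not reported here.

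Same-numbered sheep libraries come from 1 animal; the correlation of their deviations from group means was 0.024 to 0.43 for cerebellum and neocortex and 0.049 to 0.128 for sperm and brain. Counting intervals (95%) and the floor of 3 counts over a group cover counting error only.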

Additional observations from a re-analysis of the deposited data

Results flagged for a closer look

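In 64 groups of 5 sheep libraries, 16 had 1 library far above the other 4. Chance flags about 1 in 20 groups of normally distributed values; the share it flags near 0, where most of these groups lay, was not measured, and where 4 libraries have 0 counts any count in the other one is enough. For IRX1 these were sheep 699 in frontal cortex (0.121 CPM, 8 counts), posterior parietal cortex (0.181 CPM, 12 counts) and visual cortex (0.447 CPM, 28 counts), and sheep 687 in motor cortex (0.979 CPM, 68 counts). For IRX2 they were sheep 690 in basal ganglia (0.206 CPM, 11 counts), 687 in motor cortex (0.317 CPM, 22 counts), 699 in posterior parietal cortex (0.0151 CPM, 1 count) and 688 in sperm (0.144 CPM, 2 counts). For IRX3 they were sheep 690 in basal ganglia (0.0187 CPM, 1 count), 687 in entorhinal cortex (0.130 CPM, 10 counts), motor cortex (0.245 CPM, 17 counts) and prefrontal cortex (0.0534 CPM, 3 counts), 699 in frontal cortex (0.0906 CPM, 6 counts), 694 in posterior parietal cortex (0.0435 CPM, 3 counts) and 688 in visual cortex (0.0579 CPM, 4 counts). For IRX5 it was sheep 690 in prefrontal cortex (0.0292 CPM, 2 counts). The motor cortex library of sheep 687 was thus the highest for IRX1, IRX2 and IRX3.

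IRX1 lay below the mean over 10 brain regions of the same animal in the sperm of 5 of 5 sheep and above the brain of the same number in the sperm of 15 of 15 rats. IRX3 did the reverse, above in 5 of 5 sheep and below in 15 of 15 rats. Within rats, Irx1 was higher than brain in 15 of 15 sperm and lower in 14 of 14 ovaries, and Irx3 was lower in 15 of 15 sperm and higher in 14 of 14 ovaries. The differences between these effects were not tested. The mean over 10 brain regions holds pons, on which the members were chosen, so the sheep signs are a description and not support. For IRX1 they lean on pons: in sheep 690 it was 0.598 CPM in sperm (2 counts), beside 3.88 in pons and 3.63 in cerebellum. In sheep IRX1 was highest in pons and cerebellum, sperm held 6 counts in all, the mean in sperm was above those of 5 regions, and the fitted difference was −0.64 ± 1.35 on the log2 scale (SE, edgeR adjusted p = 0.663).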

How the results depend on the processing

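Of 44 tested member results, 23 kept their direction and their side of the threshold under every alternative run, and 346 of 384 single alternatives did so; where one did not, the cause was not tested. Leaving out 1 sheep in turn gave 0 to 1 members called lower in basal ganglia (0 with all sheep), 1 to 2 higher (2) and 0 to 1 lower (1) in hippocampus, 0 to 2 higher (2) in entorhinal cortex, where 323 to 1019 genes were called (627; 1019 without 688, 355 without 699 and 323 without 694), and 0 to 1 lower (1) in sperm. Values that crossed 0 on the log2 scale ran, in basal ganglia, from −0.13 to 2.29 for IRX1, −0.24 to 2.35 for IRX2 and −0.60 to 0.76 for IRX5, in hippocampus from −0.72 to 1.12 for IRX3, in entorhinal cortex from −1.23 to 1.34 for IRX3, −0.36 to 1.04 for IRX5 and −1.07 to 0.11 for IRX6, and in sperm from −1.23 to 0.28 for IRX1, which upper quartile factors put at 0.018. The IRX6 call in sheep sperm was lost with upper quartile factors, with DESeq2, without sperm library 688, and without each of sheep 688, 690, 694 and 699, leaving 0 members lower, and DESeq2 called 1 member higher in entorhinal cortex.

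In rat sperm against brain the members called lower were 1 in the main result, 3 with DESeq2, with no filter and without libraries 3, 7 and 14, and 2 with the animal block, without libraries 16 and 17, without 7, 16 and 17, and without brain 4. Genes called there were 12111, against 18426 with DESeq2 and 22067 with no filter. Irx5 there was −0.50 with DESeq2, −3.41 with the animal block (adjusted p = 0.0191) and −2.5 without libraries 3, 7 and 14. In ovary against brain 11832 genes were called, and 18799 with no filter. In ovary against sperm members called higher were 2, in place of 1, with DESeq2, with no filter, without 3, 7 and 14 and without 7, 16 and 17, and genes called were 16048 with DESeq2 and 19449 with no filter, against 9971. Between female and male brain 12 genes were called, 35 with DESeq2, 19 with no filter and 22 without brains 1 and 4, where Irx4 stood at −0.019.

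The replicate block changed no sheep member call. In rats, libraries shared a number only: deviations of same-numbered sperm and brain correlated at −0.069 to 0.209, and 3 of 15 libraries correlated best with their own number; for ovary and brain it was −0.132 to 0.096, and 3 of 14. Levels under 0.1 CPM rest on a few counts.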
